A study of Homo sapiens with 8 samples.

Results

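This account covers 41 human genes that encode the Integrator complex and factors of transcription elongation and termination, among 78932 genes in the count tables. The 41 were chosen by name, with earlier results of these data known, and each matched 1 Ensembl identifier. RNA was taken from HCT-116, a human colorectal cancer cell line, in which NUDT21 carries a dTAG degron. This gene makes the RNA-binding subunit of CFIm, a factor that recognises UGUA elements ahead of poly(A) sites in new transcripts. Cells of one group were given DMSO and JTE-607 and those of the other dTAGV1 and JTE-607, with 4 libraries each, and the labels give no dose, time or clone. dTAGV1 directs the tagged protein to degradation, DMSO is its solvent, and JTE-607 inhibits CPSF73, the nuclease that cuts pre-mRNA at poly(A) sites. JTE-607 was thus present in all 8 libraries' cells, and no library without JTE-607 was used here. The comparison asked how RNA levels of these genes differed upon dTAGV1 under that inhibition. The labels do not say that the libraries came from separate cultures, so p-values measure the spread between these libraries, which may be technical.

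RNA polymerase II pauses soon after initiation, held by NELF and DSIF. The kinase P-TEFb releases it, after which SPT6, the PAF1 complex and the kinases CDK12 and CDK13 accompany the elongating enzyme. Integrator cuts nascent RNA at small nuclear RNA genes and at paused polymerases, and its nuclease INTS11 is a relative of CPSF73. At the end of a gene, cleavage at the poly(A) site lets the exonuclease XRN2 degrade the downstream RNA and end transcription.

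Libraries held 3447842 to 4291256 reads counted to genes on the sense strand. Reads given to no gene on that strand were 30.1% to 33.7% of uniquely mapped reads with DMSO and 35.9% to 37.4% with dTAGV1. Their part in the results below was not tested. NUDT21 had 28.4 to 35.0 CPM (reads of a gene relative to the scaled total of its library) with DMSO and 4.42 to 10.2 CPM with dTAGV1, and the groups did not overlap. These are RNA levels, and the NUDT21 protein, on which dTAGV1 acts, was not measured in these libraries. Of 8 markers of colorectal epithelium, EPCAM and the keratins KRT8, KRT18 and KRT19 were abundant, while VIL1 and CDH17 were at or near 0. The 8 summed to 1581 to 1830 CPM with DMSO and 1403 to 1509 CPM with dTAGV1, and 8 markers of other cell types summed to 11.2 to 20.8 CPM over all libraries, nearly all from COL1A1. Among the epithelial markers, EPCAM rose from a mean of 273 CPM to 331 CPM and ELF3 from 45.7 CPM to 178 CPM. KRT18 fell from 408 CPM to 269 CPM and KRT19 from 786 CPM to 499 CPM, and their part in the results below was not tested.

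Of the 41 genes, 39 passed the filter on low counts and were tested. Among these, 15 rose and 4 fell upon dTAGV1 (quasi-likelihood test of edgeR, adjusted by Benjamini-Hochberg over all 12618 tested genes, threshold 0.05). That is 48.7% of the tested factors, where 57.9% of all tested genes were called. The share that rose was 38.5% against 29.4% of all tested genes, and the share that fell was 10.3% against 28.5%. No factor changed as much as 2-fold, while 16.6% of all tested genes were called and did. Log2 fold changes ran from -0.67 for NELFB to 0.80 for CCNK, with a median of 0.19 beside 0.01 for all tested genes. The median absolute log2 fold change was 0.25, against 0.42 for all tested genes. Libraries of the groups did not overlap for 16 factors, or 41.03%, against 50.9% of all tested genes. With libraries scaled by their total counts alone, 11 rose and 5 fell, so the share of called factors that were higher went from 78.9% to 68.8%. The same share over all called genes went from 50.8% to 43.8%. Total RNA per cell was not measured, so all directions are relative to the scaling, and fewer cells expressing a gene cannot be told apart from less RNA per cell. Reads come from near transcript ends, and whether a shift of poly(A) sites altered the counts of a gene was not tested.

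**Figure D1:**
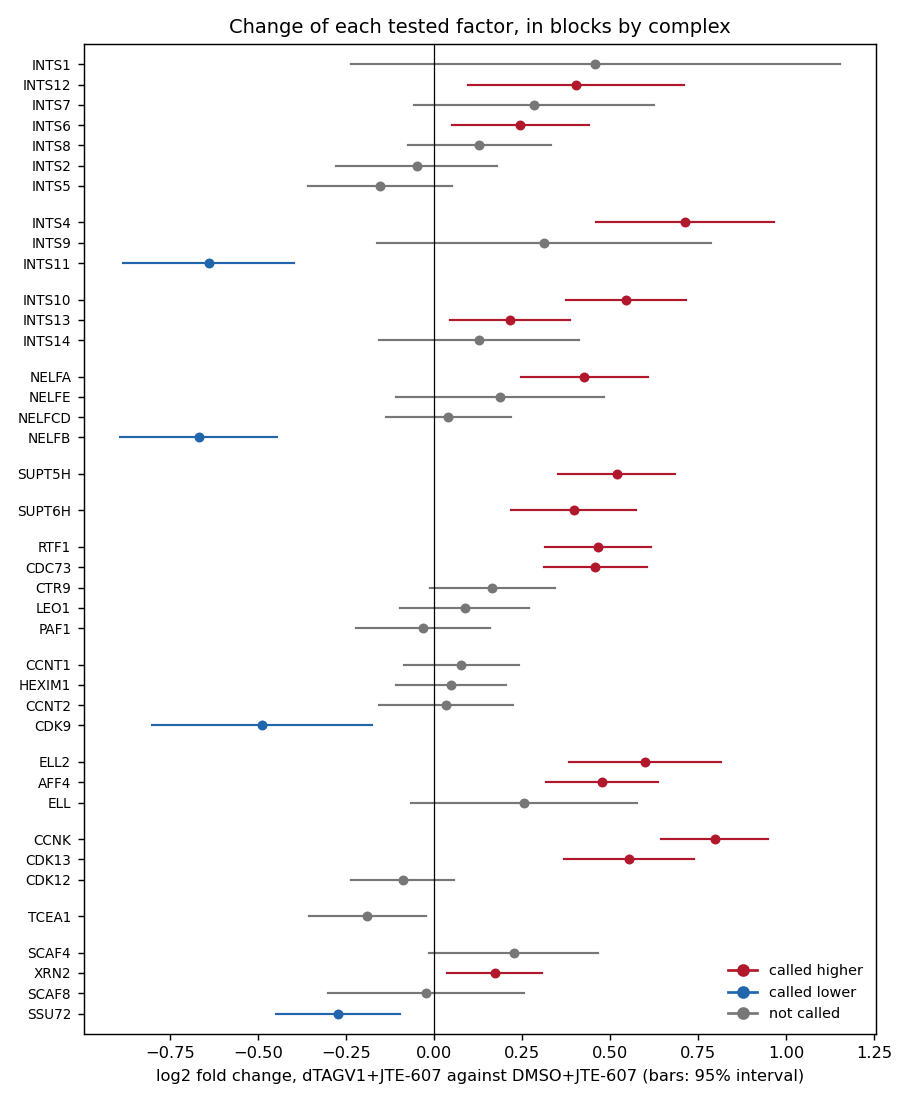
Log2 fold change of the 39 tested factors (x axis, dTAGV1+JTE-607 against DMSO+JTE-607, with 95% intervals as bars), in blocks by complex. Red points were called higher (15 genes), blue points lower (4 genes) and grey points were not called, and no value reached 1 in either direction.

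**Figure D2:**
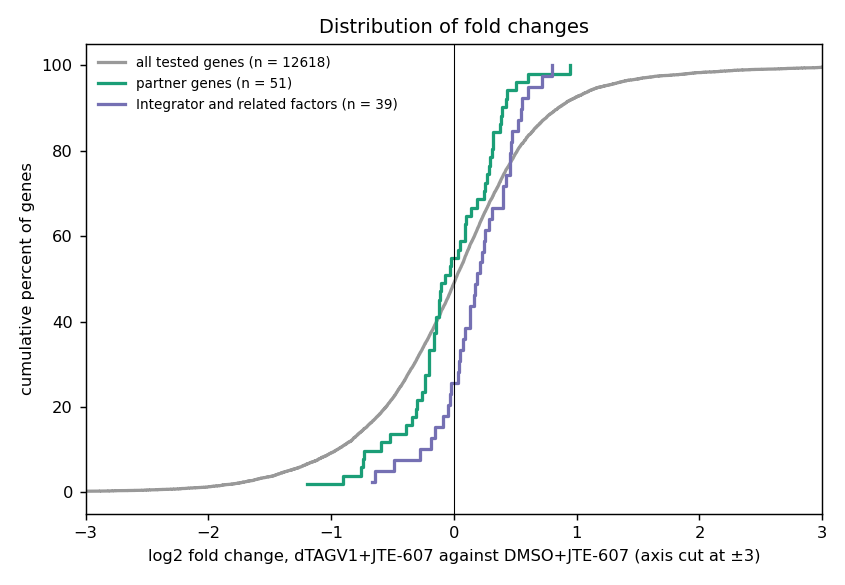
Cumulative percent of genes (y axis) by log2 fold change (x axis) for all 12618 tested genes, 51 partner genes of the same pathways and the 39 tested factors. The factors' curve lies to the right of zero at its middle, with a median of 0.19, and is narrower than that of all genes.

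The largest increase belonged to CCNK (ENSG00000090061; GRCh38 chromosome 14, 99481169 to 99535044, plus strand). CCNK encodes cyclin K, the cyclin of the kinases CDK12 and CDK13, which phosphorylate the tail of RNA polymerase II. Its level was 76.2, 76.0, 73.1 and 76.7 CPM in DMSO replicates 1 to 4, and 134, 131, 128 and 131 CPM in dTAGV1 replicates 1 to 4. All dTAGV1 libraries lay far above all DMSO libraries, with little spread in either group. The log2 fold change was 0.80 (SE 0.08, edgeR and Benjamini-Hochberg, adjusted p = 3.58e-09). Its annotated gene overlaps CCDC85C on the other strand, which fell with a log2 fold change of -0.62. ENSG00000258749 overlaps CCNK on the same strand, and reads that fit both genes are counted to neither. With counts irrespective of strand the value for CCNK was 0.49, still past the threshold.

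CDK13 (ENSG00000065883; chromosome 7, 39949646 to 40099580, plus strand) also rose. Its level was 61.2, 65.1, 52.6 and 69.98 CPM with DMSO and 94.1, 94.2, 92.2 and 85.6 CPM with dTAGV1. The groups did not overlap, and the log2 fold change was 0.55 (SE 0.09, edgeR and Benjamini-Hochberg, adjusted p = 1.84e-05). CDK12, the close relative of CDK13 and the kinase best known for suppressing premature polyadenylation in long genes, showed 141 ± 3.53 CPM with DMSO and 133 ± 7.82 CPM with dTAGV1 (SD, n = 4 each). It was not called, at a log2 fold change of -0.09 and a 95% interval of -0.24 to 0.06. The log2 ratio of CDK12 to CDK13 was 1.18 ± 0.16 with DMSO and 0.53 ± 0.03 with dTAGV1, a difference of -0.65 (2-sided exact permutation test p = 0.0286, the smallest that 4 against 4 libraries can give; Benjamini-Hochberg adjusted over 4 paralog pairs, 0.114). The ratios of the groups did not overlap, but the difference did not pass the adjustment. A pair that alone reaches this smallest p cannot pass it, so the outcome does not say whether the ratio changed.

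**Figure D3:**
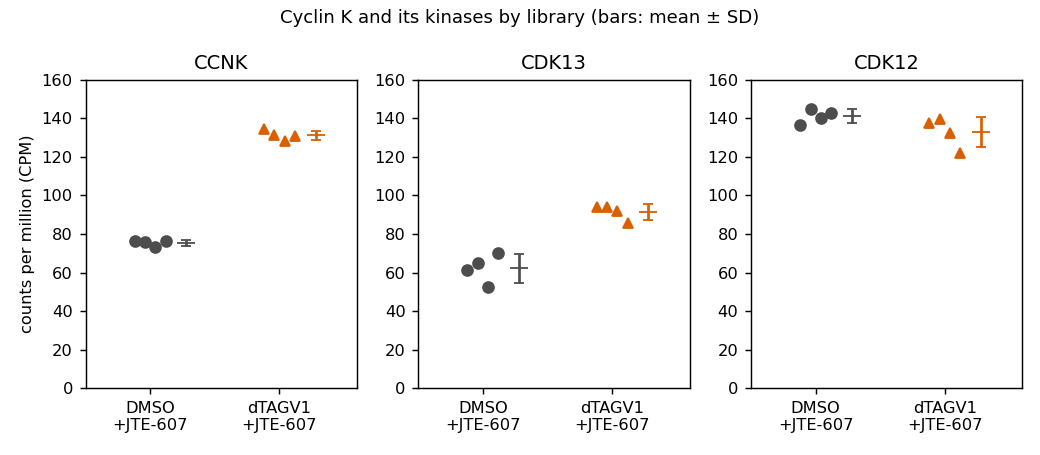
CPM (y axis, from 0) of CCNK, CDK13 and CDK12 in each DMSO+JTE-607 library (circles) and dTAGV1+JTE-607 library (triangles), with mean ± SD beside them. CCNK and CDK13 separate the groups, while CDK12 overlaps between them.

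The promoters of CCNK and NELFB, the factors with the largest increase and the largest decrease, are shown to let their composition be compared (RefSeq, GRCh38.p14, 250 bases before to 50 after RefSeq's gene start). Capitals mark the ETS core CGGAAG, the TATA box TATAAA, the CCAAT box or the GC box GGGCGG on either strand, with overlapping matches merged. The CCNK window is chr14:99481159-99481458 on the plus strand, and that of NELFB is chr9:137255077-137255376 on the plus strand.
CCNK: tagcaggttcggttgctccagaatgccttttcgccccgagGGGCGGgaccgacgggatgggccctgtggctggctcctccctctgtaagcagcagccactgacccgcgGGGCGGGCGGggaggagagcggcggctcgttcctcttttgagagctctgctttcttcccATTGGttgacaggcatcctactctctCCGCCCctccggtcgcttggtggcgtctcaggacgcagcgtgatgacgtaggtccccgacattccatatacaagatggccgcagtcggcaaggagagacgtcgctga
NELFB: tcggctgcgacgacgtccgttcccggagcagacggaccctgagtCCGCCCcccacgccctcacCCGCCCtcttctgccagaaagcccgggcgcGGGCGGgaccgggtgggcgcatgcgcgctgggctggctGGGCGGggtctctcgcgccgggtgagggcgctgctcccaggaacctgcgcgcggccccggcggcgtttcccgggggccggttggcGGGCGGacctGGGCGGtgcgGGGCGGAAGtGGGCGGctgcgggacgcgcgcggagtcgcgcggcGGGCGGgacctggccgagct
The CCNK window held 4 matches to GGGCGG and 1 to CCAAT, and that of NELFB 9 to GGGCGG and 1 to CGGAAG. A RefSeq promoter matched 33 of the 41 factors. GGGCGG was in 81.8% of these and in 44.6% of all 27305 promoters, or 71.8% of those of tested genes. CGGAAG, the core of sites bound by ETS factors, was in 51.5%, against 19.9% of all promoters and 34.3% of those of tested genes. CCAAT was in 36.4%, against 35.7% of all promoters and 37.1% of those of tested genes. TATAAA was in 3.03%, against 11.95% of all promoters and 5.32% of those of tested genes. Median GC content was 67.0% for the factors and 65.7% for tested genes. These matches describe the letters in the windows only.

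Within Integrator, 5 of 13 tested subunits rose and 1 fell (46.2% called, against 57.9% of all tested genes). Its cleavage module, in which INTS4 holds INTS9 and the nuclease INTS11, moved in both directions. As 29.4% of all tested genes rose and 28.5% fell, mixed directions in a small group are not particular to it. INTS4 (ENSG00000149262; chromosome 11, 77878720 to 77994678, minus strand) had 19.9, 21.0, 20.01 and 26.7 CPM with DMSO and 34.9, 33.5, 37.7 and 37.8 CPM with dTAGV1. DMSO replicate 4 stood above the other DMSO libraries but below every dTAGV1 library. The log2 fold change was 0.71 (SE 0.13, edgeR and Benjamini-Hochberg, adjusted p = 3.94e-05), and 0.82 without that library. INTS4 has the annotated pseudogene copies INTS4P1 and INTS4P2. Reads that fit a copy equally well are not counted to INTS4, so its level is uncertain.

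INTS11 (ENSG00000127054; chromosome 1, 1311585 to 1324691, minus strand) fell. Its level was 40.99, 43.7, 48.3 and 34.9 CPM with DMSO and 28.3, 28.1, 23.6 and 27.4 CPM with dTAGV1, without overlap. The log2 fold change was -0.64 (SE 0.12, edgeR and Benjamini-Hochberg, adjusted p = 9.07e-05). INTS11 overlaps PUSL1 on the other strand, which rose with a log2 fold change of 0.77, and with counts irrespective of strand the value for INTS11 was -1.53. INTS9, the inactive relative of INTS11 in the same module, had 9.10 ± 4.02 CPM with DMSO and 11.4 ± 1.53 CPM with dTAGV1 (SD, n = 4 each) and was not called.

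The arm module of Integrator comprises INTS10, INTS13 and INTS14. INTS10 (ENSG00000104613; chromosome 8, 19817140 to 19852083, plus strand) had 80.3, 77.2, 65.4 and 71.5 CPM with DMSO and 115, 109, 101 and 105 CPM with dTAGV1. It rose without overlap, with a log2 fold change of 0.54 (SE 0.09, edgeR and Benjamini-Hochberg, adjusted p = 8.38e-06). INTS13 rose less, from 89.1 ± 4.86 CPM to 103 ± 9.91 CPM (mean ± SD of 4 libraries each), a log2 fold change of 0.22 with overlapping libraries. INTS14 was not called, at 0.13. The partner INTS15, which joins this module, had -0.11 and was not called either.

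Among the other subunits, INTS6, which links the complex to the phosphatase PP2A, rose from 79.2 ± 10.9 to 93.7 ± 9.10 CPM (SD, n = 4 each), with a log2 fold change of 0.24 and overlapping libraries. INTS12 had 15.8 ± 1.78 and 20.9 ± 3.19 CPM (SD, n = 4 per group), that is, a log2 fold change of 0.40 that was also called despite overlap. Both calls and that of INTS13 were lost in several alternative fits, among them DESeq2 and library-size scaling. INTS2, INTS5, INTS7 and INTS8 were not called, with log2 fold changes of -0.05, -0.15, 0.28 and 0.13. INTS1, the large scaffold subunit, had only 1.77 to 6.04 CPM over the 8 libraries and was not called. Its 95% interval of -0.24 to 1.15 is wide, so a difference within that range may have been missed.

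INTS3 and SUPT4H1 did not pass the filter. INTS3, a subunit shared with the SOSS complex of DNA repair, had 0 to 3 counts per library. It overlaps SLC27A3 on the same strand, where reads that fit both genes are counted to neither. SUPT4H1, the small subunit of DSIF, had 9, 8, 13 and 7 counts with DMSO and 3, 6, 2 and 0 with dTAGV1. It overlaps RNF43 on the same strand, and RNF43 fell with a log2 fold change of -0.96. Levels of both factors are therefore uncertain, and no fold change is given.

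In NELF, the complex that holds paused polymerase, 1 of 4 subunits rose and 1 fell. That is 50% called, against 57.9% of all tested genes. NELFB (ENSG00000188986; chromosome 9, 137255173 to 137273546, plus strand) had the largest decrease of all 39 tested factors. Its level was 40.99, 41.7, 40.8 and 46.0 CPM with DMSO and 24.1, 27.8, 26.2 and 28.4 CPM with dTAGV1. The log2 fold change was -0.67 (SE 0.11, edgeR and Benjamini-Hochberg, adjusted p = 1.92e-05), and the groups were far apart. NELFA (ENSG00000185049; chromosome 4, 1982714 to 2041903, minus strand) moved the other way, from 60.7, 58.8, 55.0 and 63.6 CPM to 79.9, 88.8, 77.8 and 74.0 CPM. The groups did not overlap, and the log2 fold change was 0.43 (SE 0.09, edgeR and Benjamini-Hochberg, adjusted p = 0.000313). NELFCD and NELFE were not called, at log2 fold changes of 0.04 and 0.19.

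SUPT5H (ENSG00000196235; chromosome 19, 39436156 to 39476670, plus strand) encodes SPT5, the large subunit of DSIF that stays with polymerase from pausing to termination. It had 149, 174, 186 and 162 CPM with DMSO and 244, 271, 239 and 208 CPM with dTAGV1. The groups did not overlap, and SUPT5H rose with a log2 fold change of 0.52 (SE 0.08, edgeR and Benjamini-Hochberg, adjusted p = 1.03e-05). SUPT6H, which encodes the histone chaperone SPT6, rose from 77.5 ± 6.65 CPM to 102 ± 9.47 CPM (mean ± SD of 4 libraries each), a log2 fold change of 0.40, also without overlap. It overlaps SDF2 on the other strand, which rose by the same 0.40.

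In the PAF1 complex, which couples elongation to histone modification, 2 of 5 subunits rose and none fell. That is 40% called, against 57.9% of all tested genes. RTF1 (ENSG00000137815; chromosome 15, 41408408 to 41483563, plus strand), which stimulates ubiquitination of histone H2B, had 142, 143, 160 and 155 CPM with DMSO and 202, 192, 229 and 204 CPM with dTAGV1. Its log2 fold change was 0.47 (SE 0.08, edgeR and Benjamini-Hochberg, adjusted p = 1.16e-05). CDC73 (ENSG00000134371; chromosome 1, 193121800 to 193254815, plus strand), a tumour suppressor also called parafibromin, had 106, 105, 104 and 110 CPM with DMSO and 147, 147, 139 and 150 CPM with dTAGV1. Its log2 fold change was 0.46 (SE 0.07, edgeR and Benjamini-Hochberg, adjusted p = 9.44e-06), and neither gene's groups overlapped. The scaffold CTR9 and the subunits LEO1 and PAF1 were not called, with log2 fold changes of 0.17, 0.09 and -0.03. For CTR9, DMSO replicate 1 was at 202 CPM while the other DMSO libraries were at 272 to 278 CPM.

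Of the 4 genes of P-TEFb and its inhibitor, 1 fell and none rose (25% called, against 57.9% of all tested genes). CDK9 (ENSG00000136807; chromosome 9, 127785679 to 127790787, plus strand) had 22.4, 20.5, 24.3 and 21.3 CPM with DMSO and 17.3, 19.9, 13.8 and 12.3 CPM with dTAGV1. The groups came close but did not overlap, and CDK9 fell with a log2 fold change of -0.49 (SE 0.16, edgeR and Benjamini-Hochberg, adjusted p = 0.0107). Its cyclins CCNT1 and CCNT2 had log2 fold changes of 0.08 (95% interval -0.09 to 0.24) and 0.03 (-0.16 to 0.23). HEXIM1, which with the 7SK RNA keeps P-TEFb inactive, had 131 ± 10.5 CPM with DMSO and 135 ± 8.05 CPM with dTAGV1 (SD, n = 4 per group). The difference on the log2 scale was 0.05 with a 95% interval of -0.11 to 0.20. With counts irrespective of strand HEXIM1 was called lower, at -0.57, while its opposite-strand counts were not called, at -0.10. HEXIM1 overlaps HEXIM2-AS1 on the other strand, which was not called (log2 fold change 0.01). Irrespective of strand, reads that fit both genes are counted to neither, so these counts are not the sum of both strands. The cause of the difference was not tested. The log2 ratio of CCNT1 to CCNT2 differed by 0.04 between the groups (exact permutation test p = 0.514, adjusted 0.514).

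The super elongation complex joins P-TEFb to elongation factors. ELL2 (ENSG00000118985; chromosome 5, 95885098 to 95962071, minus strand), an elongation factor that suppresses transient pausing, had 32.5, 36.4, 35.0 and 36.8 CPM with DMSO and 62.1, 53.5, 52.4 and 46.1 CPM with dTAGV1. It rose without overlap, with a log2 fold change of 0.60 (SE 0.11, edgeR and Benjamini-Hochberg, adjusted p = 4.98e-05). AFF4 (ENSG00000072364; chromosome 5, 132875379 to 132963634, minus strand), the scaffold, had 137, 142, 135 and 140.5 CPM with DMSO and 213, 183, 211 and 167 CPM with dTAGV1. Its log2 fold change was 0.48 (SE 0.08, edgeR and Benjamini-Hochberg, adjusted p = 1.91e-05). ELL, the relative of ELL2, was not called, at 0.25 with a 95% interval of -0.07 to 0.58. The log2 ratio of ELL to ELL2 was -0.82 ± 0.20 with DMSO and -1.17 ± 0.17 with dTAGV1, a difference of -0.35 (exact permutation test p = 0.0857, adjusted 0.171). It did not pass, but none of the paralog pairs could have passed the adjustment alone at any p. With counts irrespective of strand the value for ELL2 was 0.39, still past the threshold. ELL2 and AFF4 have annotated pseudogene copies, as do 6 others of the 41 factors.

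Of the 4 termination factors, 1 rose and 1 fell (50% called, against 57.9% of all tested genes). XRN2, the exonuclease that degrades RNA downstream of a cleaved poly(A) site, rose from 339 ± 10.4 CPM to 382 ± 26.3 CPM (mean ± SD of 4 libraries each), a log2 fold change of 0.17. The lowest dTAGV1 library had 352 CPM and the highest DMSO library 348 CPM, and the call was lost in 11 of 15 alternatives, at 0.10 with library-size scaling. SSU72 (ENSG00000160075; chromosome 1, 1541673 to 1574869, minus strand), a phosphatase of the polymerase tail that binds the cleavage and polyadenylation machinery, had 71.0, 72.8, 67.0 and 72.2 CPM with DMSO and 54.7, 58.6, 59.2 and 61.5 CPM with dTAGV1. It fell without overlap, with a log2 fold change of -0.27 (SE 0.09, edgeR and Benjamini-Hochberg, adjusted p = 0.0111). SCAF4 and SCAF8, paralogs that prevent use of early poly(A) sites, had log2 fold changes of 0.23 and -0.02 and were not called. SCAF8 overlaps TIAM2 on the same strand, which rose with a log2 fold change of 1.23, so reads shared by both were not counted to SCAF8. The log2 ratio of SCAF4 to SCAF8 differed by 0.23 (exact permutation test p = 0.229, adjusted 0.305). TCEA1, the factor TFIIS that restarts backtracked polymerase, was just short of the threshold (log2 fold change -0.19, edgeR and Benjamini-Hochberg, adjusted p = 0.0573) and was called lower in 8 of 15 alternatives.

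**Figure D4:**
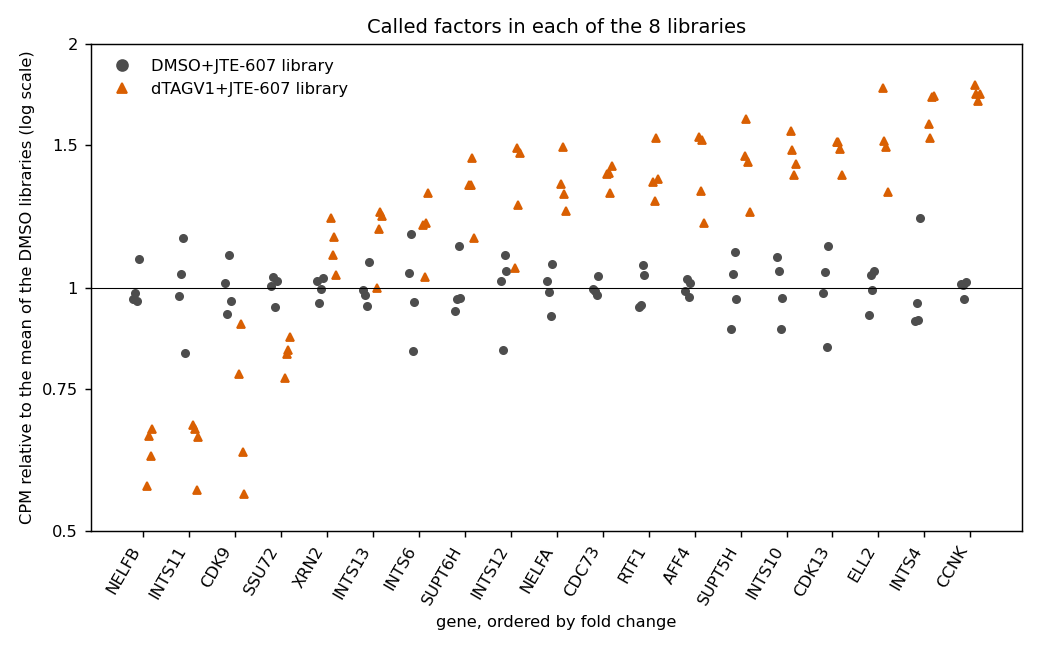
Level of the 19 called factors in each library, as CPM divided by the mean of the DMSO libraries (y axis, log scale), ordered by fold change. DMSO+JTE-607 libraries (circles) and dTAGV1+JTE-607 libraries (triangles) separate at both ends, as for NELFB and CCNK, and meet or overlap for XRN2, INTS13, INTS6 and INTS12.

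Gene length varied widely among the factors, from 3.60 kb for HEXIM1 to 213 kb for INTS12 in GENCODE 29, and calls were counted in 3 length bins. Of 8 tested factors under 20 kb, 3 fell (INTS11, NELFB and CDK9) and none rose. Of 14 factors from 20 to 60 kb, 6 rose and 1 fell (SSU72). Of 17 factors of at least 60 kb, 9 rose and none fell. The same bins of all tested protein-coding genes had 22.2% higher and 35.1% lower under 20 kb, 25.8% higher and 32.9% lower from 20 to 60 kb, and 37.2% higher and 24.8% lower from 60 kb. The 3 of 8 short factors that fell (37.5%) are near the share of all short genes. Spearman's rho between gene length and log2 fold change was 0.51 over the 39 factors and 0.15 over 10641 tested protein-coding genes. All points share the same 8 libraries, so these values are a description. The bin limits were chosen after the values were seen.

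**Figure D5:**
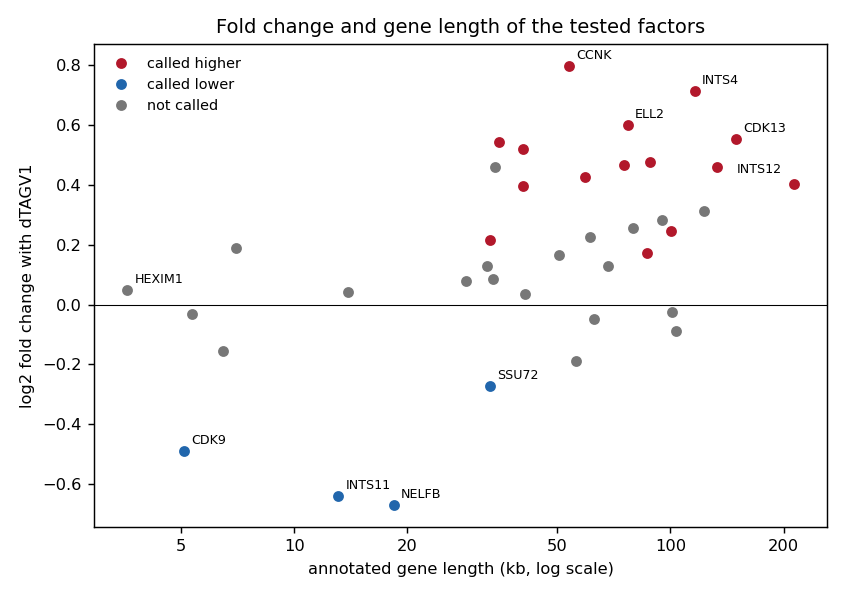
Log2 fold change with dTAGV1 (y axis) against annotated gene length in kb (x axis, log scale) for the 39 tested factors, coloured by call. No factor under 20 kb was called higher, and the 9 called factors of at least 60 kb all lie above zero.

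Because CFIm binds UGUA elements near poly(A) sites, the last 100 bases of an annotated transcript of each factor were searched for the motif TGTA, for the poly(A) signal AATAAA and for its variant ATTAAA, on the transcript's strand. TGTA was found in 23 of 41 factors (56.1%), against 55.8% of all tested protein-coding genes. It was present in 9 of 15 that rose, 2 of 4 that fell and 11 of 20 that were not called. A poly(A) signal was found in 29 of 41 (70.7%), against 81.9%. It was present in 13 of 15 that rose, 2 of 4 that fell and 13 of 20 that were not called. Stretches of 30 bases around the signal are shown for CDK13 and ELL2, which rose, and NELFB, which fell, with the signal in capitals (GRCh38, from GENCODE 29 transcripts).
CDK13, chr7:40099546-40099575, plus strand: caatagtctgtaAATAAAttgccgtaacac
ELL2, chr5:95885102-95885131, minus strand: caatttcagttcAATAAAaatgttaacttt
NELFB, chr9:137273510-137273539, plus strand: ttctcgtatgtaAATAAAaggcattttggt
In CDK13 and NELFB, one from each direction, TGTA directly precedes the signal, and the window of ELL2 holds none. Neither INTS11, CDK9 nor CCNK has a signal in the last 100 annotated bases, and factors that were not called, such as CDK12 and SCAF8, also lack one. The poly(A) sites used in these cells were not analysed here.

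Reads on the opposite strand of a factor were numerous enough to test for 7 factors. Of these, 5 were called lower and none higher, where 48.4% of 3324 genes tested this way were called in either direction. The share of those genes called lower was not counted, so the direction cannot be set against it. For CCNK these counts were 68, 98, 81 and 64 with DMSO and 45, 29, 56 and 61 with dTAGV1, a log2 fold change of -0.73 while the sense value rose. CCDC85C, which overlaps CCNK on that strand, fell with -0.62, and SETD3, 280 bases away, with -0.28. Whether such reads belong to neighbouring genes was not tested. PAF1 had 149, 171, 153 and 168 opposite-strand counts with DMSO and 45, 56, 51 and 94 with dTAGV1, a log2 fold change of -1.42, while its sense level was not called. Its neighbours on that strand, MED29 and SAMD4B, lie within 5 kb and fell with log2 fold changes of -0.70 and -0.63. INTS8 had an opposite-strand log2 fold change of -1.78, and CCNE2, which overlaps it there, fell with one of -1.45. That of INTS11 was -0.56, where the overlapping PUSL1 rose (0.77) and CPTP, 65 bases away, fell (-1.63). That of CDK13, which CDK13-DT overlaps on that strand, was -2.38, with 1 to 6 counts per dTAGV1 library for CDK13. INTS4 and HEXIM1 were not called.

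A list of 55 partner genes, which act with these factors but are not among the 41, was examined in the same fit. Of 51 tested, 13 rose and 10 fell (45.1% called, against 57.9% of all tested genes), with a median log2 fold change of -0.07. With library-size scaling 11 rose and 17 fell. The largest increase was CTDSP2, a phosphatase of the polymerase tail, from 51.8 ± 3.64 CPM to 99.8 ± 6.02 CPM (mean ± SD of 4 libraries each), a log2 fold change of 0.95. RPRD1B, which binds that tail, and ICE2 of the little elongation complex had 0.51 and 0.43. The largest decrease was TTF2, a termination factor that removes polymerase from DNA, from 74.8 ± 11.8 CPM to 32.7 ± 4.303 CPM (mean ± SD of 4 libraries each), a log2 fold change of -1.20. RPRD1A, the paralog of RPRD1B, fell with -0.90, and the helicase DHX9 with -0.76. Of the Integrator partners, BRAT1 and NABP1 fell (log2 fold changes -0.74 and -0.73) and the other 6 tested were not called. That is 25% called, below the 57.9% of all tested genes.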

How the data were processed

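RNA was measured by Lexogen QuantSeq forward sequencing of messenger RNA 3′ ends after Trizol extraction, per the labels' protocols. The kit gives reads near transcript ends, so levels were not divided by length. The authors deposited, for each library, read counts of every gene in the layout of STAR. FastQC, fastp, STAR, HTSeq, DESeq2 and GRCh38 are named in the submitters' processing notes, without versions, and the annotation is not given in the sources used here. Counts on the gene's strand were used. Reads that fit overlapping genes on that strand are counted to neither, and further factors, among them INTS4 and INTS11, have such overlaps. Totals of reads given to no gene (56.7% to 62.8% of reads) stayed out of library sizes and tests. Names came from a table of gene identifiers, and positions from GENCODE 29 (GRCh38).

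All genes were fitted with edgeR 4.0.16 in R 4.3.3 (filterByExpr, TMM, robust quasi-likelihood F test), with Benjamini-Hochberg adjustment over 12618 genes and a threshold of 0.05. A log2 fold change above 0 means a higher level in the dTAGV1 group. Standard errors are the absolute log2 fold change divided by the square root of F, and 95% intervals are 1.96 of these. Paralog ratios used CPM plus 0.5. Alternatives were DESeq2 1.42.0, RLE and library-size scaling, 2 other filters, counts irrespective of strand, a replicate block, and leaving out each library. The test was also run on simulated data in which few genes changed. That run does not cover data such as these, where 57.9% of tested genes were called. Figures were drawn with matplotlib 3.10.9.

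The factors and lists were chosen with earlier results of these data known. Per-library values are given for NUDT21 (as a range) and for the 10 largest called increases and all 4 called decreases. The 3 largest called partners in each direction are named. Integrator partners and promoter motifs were named after their values were seen. Replicates within a group differed by more than sampling noise (chi-square over degrees of freedom 1.89 to 5.63). Replicate numbers were not taken as pairs: deviations of same-numbered libraries correlated at 0.130, -0.0173, 0.0230 and 0.0338.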

Additional observations from a re-analysis of the deposited data

Results flagged for a closer look

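In 2 of 78 groups of 4 libraries, 1 library stood apart, with a gap to its neighbour that was large for the group's range by Dixon's 95% limit, which chance passes in about 1 group of 20. INTS4 had 26.7 CPM in DMSO replicate 4 and 19.9 to 21.0 CPM in the other DMSO libraries. CTR9 had 202 CPM in DMSO replicate 1 and 272 to 278 CPM in the others.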

How the results depend on the processing

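Of the 19 called factors, 15 were called in the same direction by every alternative that tested them. The other 4 were INTS6, INTS12, INTS13 and XRN2, all higher with log2 fold changes of at most 0.40. INTS12 lost its call without DMSO replicate 2, dTAGV1 replicate 2 or dTAGV1 replicate 4, and INTS6, INTS13 and XRN2 in 5 or more of the 8 fits that omit a library. INTS7 and INTS9 were called without DMSO replicate 3, CTR9 with the replicate block and TCEA1 in 8 alternatives. Of 575 alternative values for single factors, 524 kept their side of the threshold, 39 were weaker and 11 stronger. HEXIM1 alone was called in the other direction, at -0.57 with counts irrespective of strand (edgeR and Benjamini-Hochberg, adjusted p = 0.000378, the lowest over its alternatives, whose highest was 0.995). The cause was not tested. Values changed sign 10 times, none for a called factor. Omitting single libraries gave 12 to 14 factors higher and 4 to 5 lower, and 6861 to 7232 genes in all. Library-size scaling shifted all genes by -0.07, gave a median of 0.113 for the factors, 11 higher and 5 lower, and 11 partners higher and 17 lower. Requiring a mean of 100 counts left 6369 genes, of which 4120 were called. The replicate block gave 16 factors higher and 5 lower. TGTA was found in 13 factors within 50 bases of the end. The difference between groups in the log2 ratio of CCNT1 to CCNT2 ranged from -0.00117 (without DMSO replicate 3) to 0.0869 when single libraries were omitted. Low counts limit INTS1 and the untested INTS3 and SUPT4H1 most. Whether depth or, for INTS3 and SUPT4H1, the overlaps on the same strand gave these low counts was not tested.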
